A study of Mus musculus with 64 samples.

Results

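Binding of TCF7L1 was compared between 2 high-SOX2 states of mouse embryonic stem cells by ChIP-seq, which sequences the DNA fragments that an antibody to a protein brings down. The comparison used the 6 libraries immunoprecipitated with an antibody to TCF3, the older name of TCF7L1, of 64 samples in all, and the libraries were chosen by their labels alone. Naive ESCs were wild-type cells of the XY HM1 TetON line kept in 2i medium, which holds inhibitors of MEK and GSK3, with 3 biological replicates. SOX2-ON cells were the SOX2-TetON line, labelled Sox2-/-, in which endogenous Sox2 had been ablated by gene editing and SOX2 came from a doxycycline-driven transgene at the Hprt locus, with rtTA expressed from Rosa26. They had been differentiated with bFGF and LGK974, a blocker of WNT secretion, and then also with the GSK3 inhibitor CHIR99021, with doxycycline kept at 1 µg/ml, again with 3 biological replicates. By design both states held SOX2 and a GSK3 inhibitor, but they differed in cell line, in medium and in differentiation, and these cannot be told apart here. The SOX2-TetON cells came from picked clones, both lines had been grown on fibroblast feeders beforehand, and the time label was 72 h.

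TCF7L1 is an HMG-box protein of the TCF/LEF family, whose members bind a short AT-rich word and carry β-catenin to DNA when the WNT pathway is active. In embryonic stem cells it acts mainly as a repressor that restrains pluripotency genes such as Nanog, Esrrb and Tfcp2l1, and inhibition of GSK3 relieves this repression. SOX2 is itself an HMG-box protein, and it often sits next to OCT4 on a composite word.

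The deposited files were lists of peaks on the mm10 build, made separately for each library, so that a value below is a peak's position, its fold (the ratio of signal to local background at the summit) or its rank by −log10 p-value. SOX2-ON replicates 1, 2 and 3 had 21224, 16482 and 247018 peaks, and naive ESC replicates 1, 2 and 3 had 660387, 23347 and 117055. The lists differed 40.1-fold in length and overlapped between the conditions (mean log10 number 4.65 ± 0.649 against 5.09 ± 0.726, SD, n = 3 each, exact permutation p = 0.50, two-sided). The lists give no read counts, so read depth is unknown. Comparisons of position therefore used the 5000 strongest peaks of each library. An exact permutation test of 3 against 3 libraries cannot go below p = 0.1, which is also the limit for 2 against 3, so no such test could pass 0.05.

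SOX2-ON replicate 1 stood apart from the other 5 libraries. The TCF word, CTTTGAA or CTTTGAT on either strand, lay within 100 bp of the summit in 16.3% of its 5000 strongest peaks, against 49.3% and 51.1% in SOX2-ON replicates 2 and 3 and 50.7%, 49.6% and 48.9% in naive ESC replicates 1, 2 and 3. Windows 5000 bp away held the word in 7.84% to 8.90% of cases. Among its 500 strongest peaks the share was 40.4%, against 65.8% to 68.4% in the other libraries. Its median peak was 54 bp wide, less than the read length of 76 bp, and its median fold among the 5000 was 6.00, against 13.4 to 43.4 elsewhere. Its strongest peaks also lay over coding exons. Summits fell in 11 of the 13 coding exons of Tcf7l1, the gene of the immunoprecipitated protein, with a highest fold of 131, and in 7 of 9 coding exons of Tfap2a and 7 of 8 of Tfap2c. In the other 5 libraries 0 to 6 coding exons of each of these genes held a summit, with folds of at most 28.7. Results that rest on it are therefore given with this library and without it. What set it apart was not tested.

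**Figure D1:**
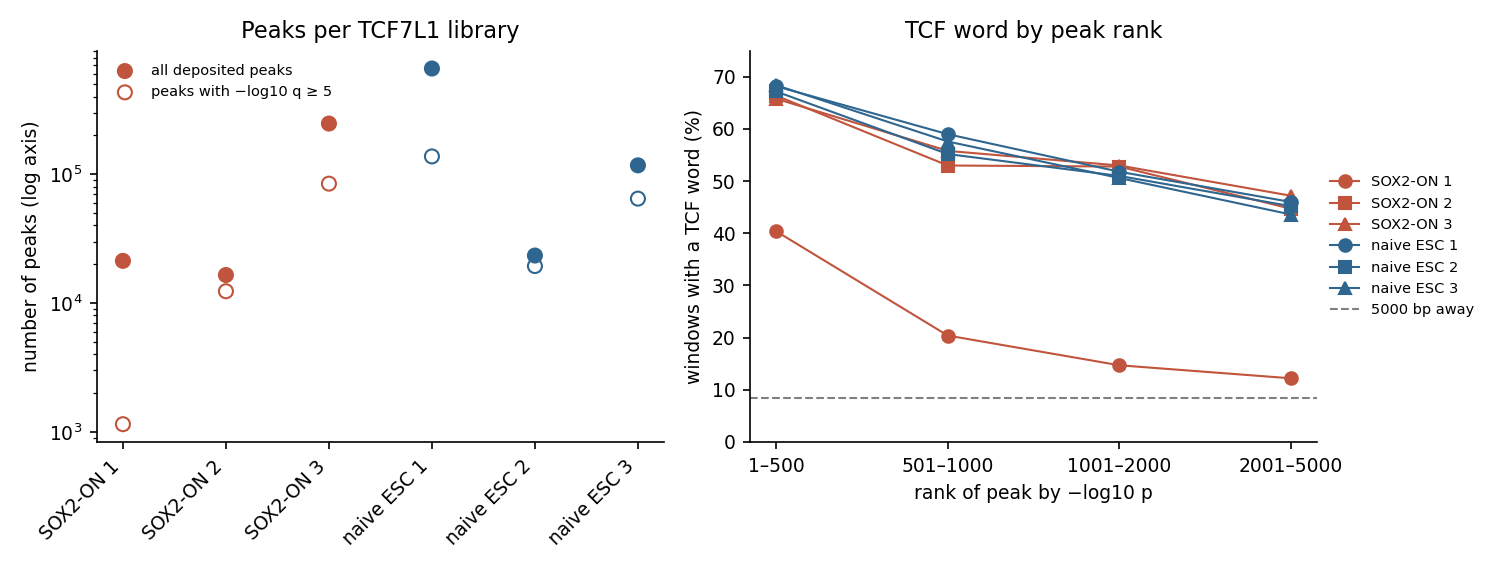
Left, number of deposited peaks (filled) and of peaks with −log10 q of at least 5 (open) in each TCF7L1 library, on a log axis. Right, percent of windows of 100 bp either side of the summit with a TCF word, by rank of the peak, with the mean share 5000 bp away as a dashed line. The other 5 libraries run together from 65.8% to 68.4% among the 500 strongest peaks, and SOX2-ON replicate 1 runs below them at every rank.

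Sites that carry the comparison are shown first, as 81 bases around the summit on the plus strand of mm10, read from RefSeq's GRCm38.p6 assembly. Capitals mark TCF words and SOX words, CATTGT or CTTTGT on either strand.
Nkd1, SOX2-ON: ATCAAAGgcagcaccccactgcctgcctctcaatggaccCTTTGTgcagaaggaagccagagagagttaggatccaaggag
Evx1, SOX2-ON: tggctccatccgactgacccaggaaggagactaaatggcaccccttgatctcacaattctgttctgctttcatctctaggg
Ttll5, SOX2-ON: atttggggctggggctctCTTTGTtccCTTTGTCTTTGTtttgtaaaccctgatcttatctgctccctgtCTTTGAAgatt
Ncald, SOX2-ON: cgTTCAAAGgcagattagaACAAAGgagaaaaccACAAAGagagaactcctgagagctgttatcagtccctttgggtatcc
Mast4, stronger in SOX2-ON: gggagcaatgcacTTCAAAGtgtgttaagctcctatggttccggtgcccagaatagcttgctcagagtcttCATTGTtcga
Slc25a21, stronger in SOX2-ON: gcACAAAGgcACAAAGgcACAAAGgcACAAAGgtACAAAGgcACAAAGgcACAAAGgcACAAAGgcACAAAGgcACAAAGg
Msgn1, naive ESC: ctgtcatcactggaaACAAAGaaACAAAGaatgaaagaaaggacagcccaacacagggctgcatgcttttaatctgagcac
Lefty2, naive ESC: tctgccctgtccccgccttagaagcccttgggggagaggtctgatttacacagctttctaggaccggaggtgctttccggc
Rtf1, naive ESC: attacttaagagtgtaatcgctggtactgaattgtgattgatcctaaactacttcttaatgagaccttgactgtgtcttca
Ptdss1, stronger in naive ESC: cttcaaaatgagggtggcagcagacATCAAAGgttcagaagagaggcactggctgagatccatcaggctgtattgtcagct
Naa30, in all 6 libraries: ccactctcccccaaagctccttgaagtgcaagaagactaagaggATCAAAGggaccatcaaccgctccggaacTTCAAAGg
Clstn2, in all 6 libraries: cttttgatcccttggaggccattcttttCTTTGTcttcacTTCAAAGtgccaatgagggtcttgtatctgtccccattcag
These are sites among the 5000 strongest peaks of only 1 condition (Nkd1, Evx1, Ttll5, Ncald, Msgn1, Lefty2, Rtf1), that were much stronger in 1 condition (Mast4, Slc25a21, Ptdss1), or that were among the strongest in both (Naa30, Clstn2).

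The first question was whether TCF7L1 occupied the same places in both states. Among the 5 similar libraries, more strong peaks recurred within a condition than across conditions. Of the 5000 peaks of SOX2-ON replicate 2, 71.7% overlapped one of replicate 3, and 44.6% to 46.2% overlapped one of a naive ESC library. Of the peaks of a naive ESC library, 75.5% to 83.1% overlapped one of another naive ESC library, and 44.4% to 45.9% one of SOX2-ON replicate 2 or 3. SOX2-ON replicate 1 shared few peaks with either condition, 16.5% and 17.1% with the other SOX2-ON libraries and 12% to 12.3% with naive ESCs. By the Jaccard index, the base pairs in common divided by those in either list, SOX2-ON replicates 2 and 3 gave 0.416, the naive ESC pairs 0.460 to 0.512, and pairs across the conditions 0.207 to 0.249 without SOX2-ON replicate 1. The mean within conditions was 0.332 and between them 0.169, a difference of 0.163 (exact permutation p = 0.10, n = 6 libraries). It was 0.0792 to 0.0884 when any 1 naive ESC library was left out (exact permutation p = 0.60 to 0.70, n = 5). Without SOX2-ON replicate 1 the means were 0.473 and 0.237, a difference of 0.236 (exact permutation p = 0.10, n = 5).

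Peaks of the 6 libraries merged into 14071 sites where they shared at least 1 bp. Of these, 166 (1.18% of the sites) had a peak in all 3 SOX2-ON libraries and in no naive ESC library, 1333 (9.47%) showed the reverse, and 521 had a peak in all 6. Another 5987 sites had a peak in 1 SOX2-ON library only. Without SOX2-ON replicate 1, 9983 sites were left and the classes were of like size. Of these, 1317 (13.2%) had a peak in both SOX2-ON libraries and no naive ESC library, 1344 (13.5%) in all 3 naive ESC libraries and neither SOX2-ON library, and 1615 in all 5. Few sites were wholly absent from the other condition when its full lists were used, 14 of the 166 and 311 of the 1333. Full lists reach weak peaks and differ in length, so this count is strict.

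**Figure D2:**
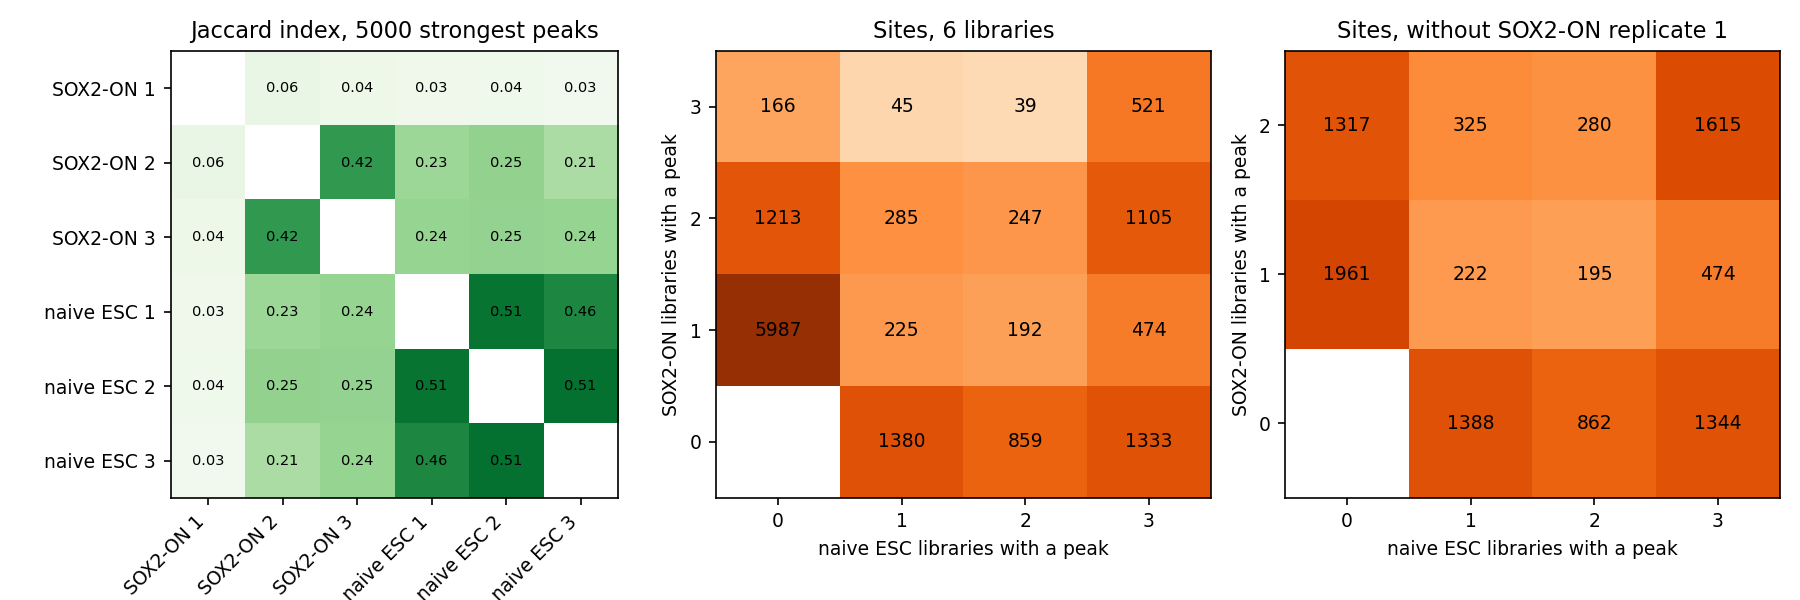
Left, Jaccard index of the 5000 strongest peaks for each pair of TCF7L1 libraries. Middle and right, number of merged sites by how many naive ESC libraries (x) and SOX2-ON libraries (y) had a peak, for 6 libraries and without SOX2-ON replicate 1, with shading on a log scale. The corners hold 166, 1333 and 521 sites with 6 libraries and 1317, 1344 and 1615 with 5.

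The sites found in 1 condition lay at different distances from genes. Over the 5000 strongest peaks, the median distance from the summit to the nearest start site of a protein-coding transcript was 40672, 40090 and 39498 bp in SOX2-ON replicates 1, 2 and 3, and 25710, 27014 and 25691 bp in naive ESC replicates 1, 2 and 3. All 3 SOX2-ON libraries lay above all 3 naive ESC libraries, with means of 40087 ± 588 and 26138 ± 759 bp (SD, n = 3 each, exact permutation p = 0.10, the smallest possible). Summits more than 50 kb from a start site made up 45.3% ± 0.412 of SOX2-ON peaks and 34.2% ± 0.668 of naive ESC peaks (SD, n = 3 each, exact permutation p = 0.10). The share within 1000 bp of a start site was 4.17% ± 0.584 against 4.04% ± 0.342 (SD, n = 3 each, exact permutation p = 0.80), a difference smaller than the spread between replicates. Within 5000 bp the shares were 12.4%, 14.4% and 14.2% in SOX2-ON and 16.2%, 15.4% and 16.3% in naive ESCs (exact permutation p = 0.10, n = 3 each), and the groups did not overlap. The measures at 50 kb and the median were added after the data were seen. At the merged sites the median was 73867 bp for those only in SOX2-ON, 22197 bp for those only in naive ESCs and 31293 bp for those in all 6 libraries. With the 5 similar libraries these were 58651, 22288 and 29807 bp. For comparison, the 3 CEpiLC and 3 SOX2-OFF TCF7L1 libraries, from the other differentiated conditions of the study, had medians of 26734 to 35346 bp, all below the SOX2-ON libraries, with the lowest inside the naive ESC range. CEpiLC replicate 1 had 1626 peaks, all of which were used.

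Sequence near the summits separated the conditions for words of 3 factors that mark pluripotent states. ESRRB and the KLF factors sustain naive pluripotency, and OTX2 marks the step to primed, epiblast-like pluripotency. The ESRRB word TCAAGGTCA lay within 100 bp of 0.560%, 0.440% and 0.500% of SOX2-ON summits and of 1.86%, 1.74% and 1.90% of naive ESC summits. The KLF words GGGTGTGG and GGGCGTGG lay near 2.62%, 2.28% and 2.14% of SOX2-ON summits and 4.92%, 4.48% and 4.84% of naive ESC summits. In windows 5000 bp away the ESRRB share was 0.420%, 0.420% and 0.480% in SOX2-ON and 0.720%, 0.640% and 0.660% in naive ESCs. The KLF share there was 1.96%, 2.10% and 1.88% against 2.26%, 2.18% and 2.26%. In both cases the SOX2-ON libraries sat near their own share 5000 bp away, and the naive ESC libraries sat above theirs. The OTX word GGATTA ran the other way, with 8.58%, 9.62% and 10.5% in SOX2-ON and 7.44%, 7.52% and 7.70% in naive ESCs. At 5000 bp its shares were 7.38%, 7.98% and 8% in SOX2-ON and 8.74%, 8.96% and 8.74% in naive ESCs. The shares at 5000 bp thus also separated the conditions, for ESRRB and KLF in the direction of the summits and for OTX against it. At the summits no library of one condition overlapped the range of the other for any of the 3 words. The differences of SOX2-ON minus naive ESC were -1.33, -2.40 and 2.01 percentage points (each exact permutation p = 0.10, adjusted p = 0.40 over the 12 words tested, n = 3 each). Without SOX2-ON replicate 1 the differences were -1.36, -2.54 and 2.50 points.

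By site, ESRRB words lay near none of the 166 SOX2-ON-only sites, 3.68% of the naive-only sites and 0.192% of the common sites, and without SOX2-ON replicate 1 near 0.228%, 3.65% and 0.805%. KLF words lay near 0.602%, 6.30% and 1.15% of the same 3 classes, and near 1.59%, 6.25% and 2.48% without SOX2-ON replicate 1. OTX words lay near 9.64%, 7.20% and 8.83%, and near 12.5%, 7.22% and 7.49% without that library. These sites were drawn from the peaks already counted.

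The KLF words also occur in repeats: of the 1333 naive-only sites, 84 held a KLF word and 34 of these held one outside soft-masked (repeat) sequence. Counting only words outside soft-masked sequence, a setting added after the data were seen, the shares were 1.55% ± 0.190 in SOX2-ON against 2.61% ± 0.162 in naive ESCs for KLF and 0.320% ± 0.0346 against 0.747% ± 0.0231 for ESRRB. For OTX they were 6.83% ± 1.69 against 4.40% ± 0.265 (SD, n = 3 each; all 3 exact permutation p = 0.10). The ESRRB difference thus went from -1.33 to -0.427 points, KLF from -2.40 to -1.06 and OTX from 2.01 to 2.43. Part of both the ESRRB and the KLF difference therefore lay in soft-masked sequence. In TCF7L1 libraries of CEpiLC and SOX2-OFF cells the ESRRB share over whole sequence was 0.280% to 0.861%, below that of every naive ESC library. The KLF share there was 2.72% to 3.94%, above every SOX2-ON and below every naive ESC library. The OTX share was 7.12% to 19.9%, with CEpiLC replicates 2 and 3 (7.12% and 7.28%) below every naive ESC library and the highest in CEpiLC replicate 1. SOX2-OFF replicates 1, 2 and 3 had 9.08%, 8.70% and 9.14%, above every naive ESC library and inside the SOX2-ON range.

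TCF words, the binding word of the protein itself, lay near 49.3% and 51.1% of summits in SOX2-ON replicates 2 and 3, and the difference from naive ESCs was 0.497 points (exact permutation p = 0.60, n = 2 and 3). SOX words lay near 56.8% and 54.5% of summits in the same 2 libraries and near 50.6%, 52.9% and 51.4% in naive ESCs, a difference of 4.08 points without overlap (exact permutation p = 0.10, adjusted p = 0.24 over 12 words, n = 2 and 3). SOX2-ON replicate 1 had 32% and turned the direction, so that with all 6 libraries the difference was -3.81 points (exact permutation p = 1). The composite OCT-SOX word TTGTNATGC lay near 3.64% and 2.96% of summits in SOX2-ON replicates 2 and 3 and near 3.04% to 3.84% in naive ESCs, ranges that overlap, with 0.860% in SOX2-ON replicate 1. TEAD words (GGAATG) lay near 18.3% and 16.1% in SOX2-ON replicates 2 and 3 against 14.0% to 14.5% in naive ESCs, and near 11.6% in SOX2-ON replicate 1. The OCT word ATGCAAAT, the ZIC word CAGCAGG, the brachyury (T) word GGTGTGA and the FOXH1 word TGTGGATT gave ranges that overlapped between the conditions. So did the CDX words, which are TTTATTG and, differing in a base, TTTATGG. A word is a match of letters and not a shown binding site, and SOX and TCF words share their first bases.

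**Figure D3:**
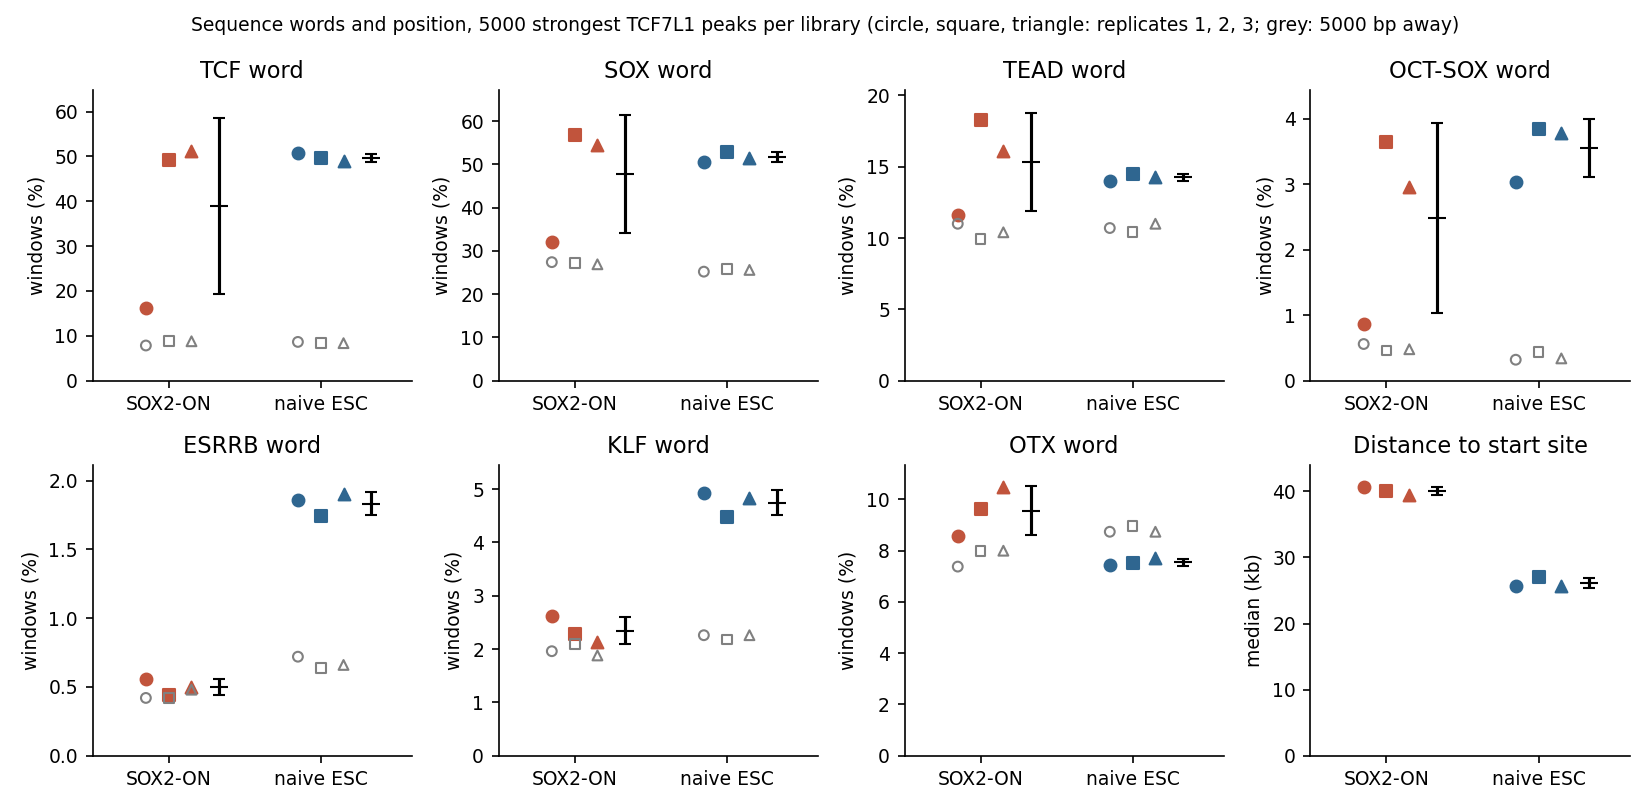
Percent of windows of 100 bp either side of the summit that held each word, for the 5000 strongest TCF7L1 peaks of each library, and, in the last panel, the median distance to a start site in kb. Black ticks with error bars give the mean ± SD of 3 libraries and grey open symbols the share 5000 bp away. ESRRB and KLF words are higher in all naive ESC libraries, OTX words in all SOX2-ON libraries, and SOX2-ON replicate 1 (circle) lies low for TCF, SOX and OCT-SOX words.

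The next question was whether other proteins bound the same sites. Peaks of SOX2, β-catenin, LEF1 and TCF7L2 from the same 2 conditions were laid over the TCF7L1 sites, again with the 5000 strongest peaks of each library. β-catenin, which TCF/LEF proteins can carry to DNA, covered the sites of its own condition most often of the 4 proteins. SOX2-ON β-catenin replicates 1, 2 and 3 had a peak at 91.6%, 90.4% and 85.5% of the 166 SOX2-ON-only sites and at 4.50%, 4.58% and 5.85% of the 1333 naive-only sites. Naive ESC β-catenin replicates 1, 2 and 3 had a peak at 11.4%, 3.61% and 4.22% of the SOX2-ON-only sites and at 83.7%, 76.4% and 84.2% of the naive-only sites. Without TCF7L1 SOX2-ON replicate 1, SOX2-ON β-catenin replicates 1, 2 and 3 covered 72.0%, 76.2% and 67.7% of the 1317 SOX2-ON-only sites. Naive ESC β-catenin replicates 1, 2 and 3 then covered 83.9%, 76.6% and 84.3% of the 1344 naive-only sites. All 6 β-catenin libraries covered 92.5% to 97.9% of the 521 common sites. SOX2 libraries covered 57.8% to 73.3% of these and TCF7L2 libraries 39.5% to 74.9%, so coverage differed between proteins there too. SOX2 peaks covered 57.8% to 64.5% of the SOX2-ON-only sites in SOX2-ON cells and 5.42% to 9.04% in naive ESCs, and 3.98% to 4.13% against 32.9% to 47.3% of the naive-only sites. Without TCF7L1 SOX2-ON replicate 1, SOX2 peaks covered 46.4% to 50.3% of the SOX2-ON-only sites in SOX2-ON cells and 8.73% to 9.95% in naive ESCs.

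LEF1 and TCF7L2, the other DNA-binding partners of β-catenin, showed the same direction with wider spread. SOX2-ON LEF1 replicates had a peak at 51.8%, 76.5% and 53.6% of the SOX2-ON-only sites, and naive ESC LEF1 replicates at 2.41%, 20.5% and 3.01%. At the naive-only sites the SOX2-ON LEF1 replicates had 0.900%, 2.18% and 2.18% and the naive ESC replicates 0.825%, 49.8% and 11.1%, so that naive ESC LEF1 replicate 1 lay below all 3 SOX2-ON libraries. That library also covered only 6.33% of the common sites, against 41.5% to 85.0% for the other 5 LEF1 libraries. TCF7L2 covered 23.5% to 34.9% of the SOX2-ON-only sites in SOX2-ON cells and 4.22% to 7.23% in naive ESCs, and 0.450% to 0.675% against 6.15% to 28.3% of the naive-only sites. Without TCF7L1 SOX2-ON replicate 1, SOX2-ON libraries covered less of the SOX2-ON-only sites, 26.6% to 51.3% for LEF1 and 10.6% to 15.6% for TCF7L2. Naive ESC libraries covered 0.759% to 12.7% of them for LEF1 and 1.44% to 3.95% for TCF7L2.

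As an index, the log2 odds of covering naive-only sites minus that of covering SOX2-ON-only sites, every naive ESC library of a protein lay above every SOX2-ON library. The mean difference was 13.4 for β-catenin, 8.31 for SOX2, 7.30 for TCF7L2 and 7.27 for LEF1 (each exact permutation p = 0.10, adjusted p = 0.10 over 4 proteins, n = 3 each). At the sites of the 5 similar TCF7L1 libraries the differences were 11.7, 7.21, 7.02 and 6.81 (each exact permutation p = 0.10, n = 3 each). No source used here says whether immunoprecipitations with the same replicate number shared chromatin. TCF7L1 itself was also compared in the other differentiated conditions. CEpiLC and SOX2-OFF TCF7L1 libraries had a peak at 10.8% to 33.7% of the SOX2-ON-only sites, 0.825% to 11.2% of the naive-only sites and 42.4% to 75.6% of the common sites. With the sites of the 5 similar libraries these shares were 7.06% to 37.1%, 0.818% to 11.2% and 25.0% to 66.2%.

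**Figure D4:**
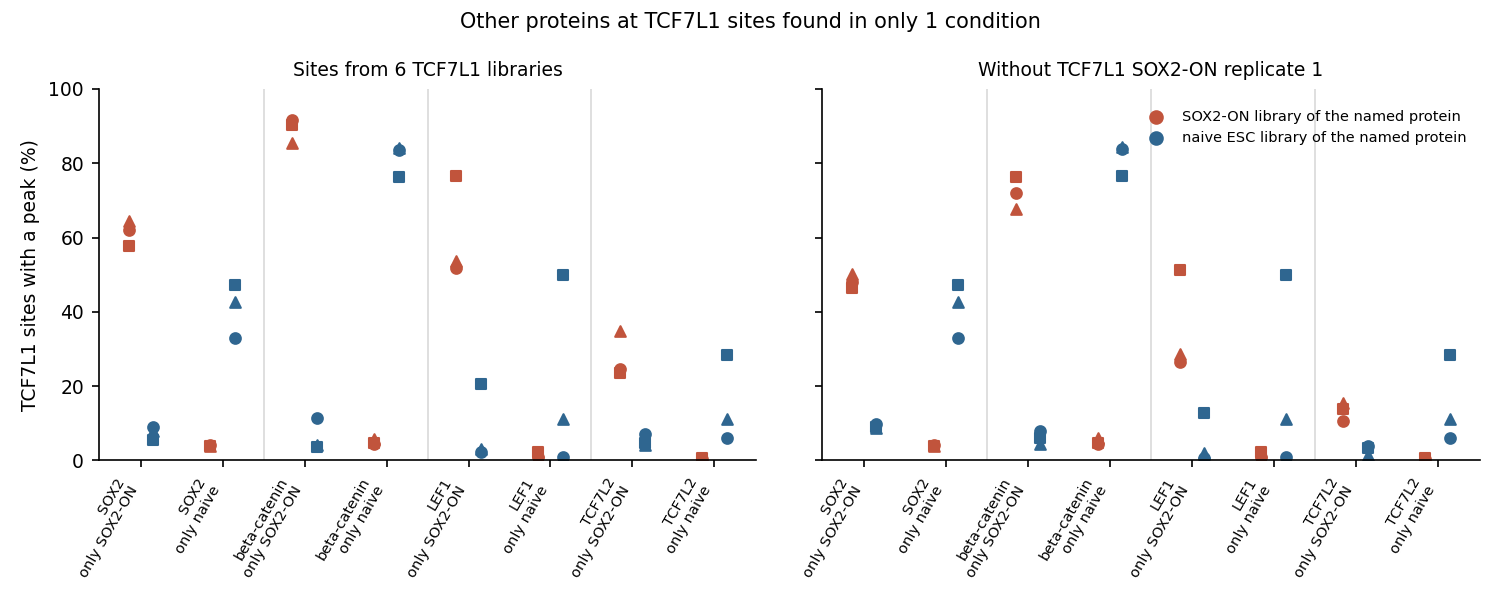
Percent of TCF7L1 sites found only in SOX2-ON or only in naive ESCs that had a peak of another protein, one point per library of that protein (circle, square and triangle for replicates 1, 2 and 3), with sites from 6 TCF7L1 libraries (left) and without SOX2-ON replicate 1 (right). β-catenin points sit at 85.5% to 91.6% and 76.4% to 84.2% at the sites of their own condition on the left.

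The next question was which gene loci differed. A locus was the gene body with 10 kb upstream, and it counted as bound in a library when 1 of the 5000 strongest peaks overlapped it. Of 21938 protein-coding loci, 130 (0.593%) were bound in 3 of 3 SOX2-ON and 0 of 3 naive ESC libraries, 513 (2.34%) showed the reverse, and 523 were bound in all 6. Without SOX2-ON replicate 1 there were 410 (1.87%) and 609 (2.78%). A long gene offers more room for a peak by this measure. Over all protein-coding loci, 16498 of 21938 were bound in no library, 8.75% in all 3 naive ESC libraries, 7.79% in both SOX2-ON replicates 2 and 3, and 1033 in all 5 of these libraries. The counts for the lists below are to be read against these values.

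Among loci of WNT feedback genes, 2 that encode WNT inhibitors were among the strongest peaks only in SOX2-ON. Of 16 TCF/LEF and WNT feedback loci, 7 were bound in all 6 libraries, against 523 of all 21938 loci, and 10 in all 5 without SOX2-ON replicate 1. Another 2 were bound only in SOX2-ON (Nkd1 and Dkk1), 0 only in naive ESCs, and 2 in no library. Without SOX2-ON replicate 1, the same 2 were bound only in SOX2-ON and 1, Notum, only in naive ESCs. Notum had folds of 5.61 and 9.90 in SOX2-ON replicates 1 and 3 (ranks 4768 and 6134) and no peak in replicate 2. In naive ESCs its folds were 12.4, 10.1 and 24.4 (ranks 4401, 3360 and 2683). At Nkd1, which encodes a cytoplasmic inhibitor of WNT signalling, the strongest peak had folds of 9.67, 10.6 and 73.2 in SOX2-ON replicates 1, 2 and 3, with ranks 215, 3034 and 231. In naive ESC replicates 1 and 3 the folds were 9.73 and 7.10, with ranks 10874 and 30456, and replicate 2 had no peak. The SOX2-ON site was chr8:88512239-88512654, intergenic and 8867 bp upstream of a start site of Nkd1, and its sequence above holds a TCF and a SOX word. At Dkk1, which encodes a secreted WNT inhibitor, folds were 5.93, 9.25 and 18.5 in SOX2-ON (ranks 2417, 4132 and 3991) and 14.1, 6.65 and 19.6 in naive ESCs (ranks 8060, 12843 and 8504). The Nkd1 and Dkk1 calls both rest on rank, since the folds overlapped between the conditions at each locus. The Dkk1 call also rests on 2 different sites. One was among the 5000 strongest peaks of SOX2-ON replicates 2 and 3 and the other among those of replicate 1.

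Loci of the TCF/LEF family itself were mixed. Tcf7l2 was bound in all 6 libraries, with folds of 7.33, 17.8 and 33 in SOX2-ON and 42.5, 31.8 and 67.1 in naive ESCs. Lef1 was bound in 2 of 3 SOX2-ON and 3 of 3 naive ESC libraries, with no peak in SOX2-ON replicate 1, 23.3 and 35.8 in the others and 29.7, 14.2 and 35.5 in naive ESCs. Tcf7 was bound in 0 and 1 libraries, with folds of at most 10.5 in SOX2-ON and 22.7, 5.68 and 11.1 in naive ESCs. Tcf7l1 was bound in all 6, but in SOX2-ON replicate 1 only through the coding exons given above. Outside them that library's best peak had a fold of 5.25 and rank 8124, while the others had folds of 18.1 and 43.7 in SOX2-ON and 47.8, 31.2 and 76.2 in naive ESCs.

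About as many naive pluripotency loci were bound in SOX2-ON replicates 2 and 3 as in naive ESCs. Of 14 such loci, 7 were bound in all 3 naive ESC libraries, which is 50% against 8.75% of all loci, and the same count, 7, was bound in all 5 libraries without SOX2-ON replicate 1, against 1033 of 21938 loci. None was bound in every library of one condition and none of the other, and 5 were bound in no library. Tfcp2l1, a core naive factor, had folds of 4.97, 12.8 and 36.2 in SOX2-ON (ranks 9035, 2010 and 966) and 96.8, 107 and 228 in naive ESCs (ranks 117, 53 and 49), so that the ranks did not overlap. Prdm14, which protects naive pluripotency, had no peak in SOX2-ON replicate 1, folds of 16.8 and 27.3 in the others (ranks 1535 and 2470) and 70.8, 56.7 and 123 in naive ESCs (ranks 242, 228 and 240). Esrrb had folds of 4.15, 16.6 and 25.0 against 40.3, 24.8 and 79.1, with ranks of 15503, 1799 and 3028 against 1019, 1581 and 912. Nanog had no peak in SOX2-ON replicate 1, 7.50 and 21.3 in the others (ranks 4576 and 3084) and 23.7, 13.6 and 29.7 in naive ESCs (ranks 2512, 3441 and 3763), and its ranks overlapped. Klf2 was the strongest of this list in SOX2-ON, with folds of 8.77, 53.1 and 86.7 (ranks 276, 71 and 77) against 75.5, 44.5 and 146 (ranks 259, 354 and 184), and overlapped likewise.

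Of 8 general pluripotency loci, 2 (Pou5f1 and Jarid2) were bound in all 6 libraries and 3 in none. Sox2 was bound in 1 naive ESC library of the 6, with full-list folds of 6.10, 6.69 and 27.8 in naive ESCs and 5.07 in SOX2-ON replicate 3 only, and in SOX2-TetON cells this locus had been edited. Of 10 primed epiblast loci, 1 was bound only in naive ESCs and 0 only in SOX2-ON. That locus was Lefty2, which encodes an inhibitor of Nodal, with folds of 17.5, 11.3 and 33.7 in naive ESCs (ranks 4741, 4370 and 2725) and, in SOX2-ON, 10.1 (rank 5951) in replicate 3 alone. Its site, chr1:180888276-180889519, lay 4396 bp upstream of a start site and held none of the 12 words. The rank in SOX2-ON replicate 3 was just outside the limit of 5000. Nodal, the ligand, was bound in 2 of 3 SOX2-ON and 3 of 3 naive ESC libraries, with folds of 19.1 and 28.9 against 38.9, 27.0 and 71.4. Fgf5, a marker of the epiblast-like state, had folds of 5.04, 16.0 and 56.2 in SOX2-ON (ranks 8952, 2111 and 720) and 19.5, 8.76 and 17.3 in naive ESCs (ranks 3280, 6477 and 7600).

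Of 22 caudal epiblast and mesoderm loci, 3 (Cdx1, Cdx2 and Cdx4, which specify posterior identity) were bound in all 6 libraries and 9 in none, against 523 and 16498 of all 21938 loci. Evx1 was bound only in SOX2-ON and Msgn1 only in naive ESCs, classes that held 0.593% and 2.34% of all loci. At Evx1, a homeobox gene of the posterior primitive streak, the site chr6:52311182-52311669, intergenic and 2102 bp upstream of a start site, had folds of 5.79, 16.2 and 50 in SOX2-ON (ranks 3946, 1507 and 565). In naive ESCs the same site had 3.12, 5.50 and 10.3 (ranks 490524, 17024 and 19039). The folds overlapped between the conditions at this site, and the ranks did not. At Msgn1, a driver of paraxial mesoderm, the site chr12:11216321-11217225, intergenic and 7660 bp upstream, had folds of 57.5, 48.9 and 97.5 in naive ESCs (ranks 710, 591 and 838). In SOX2-ON only replicate 3 had a peak, with 6.49 at rank 30835. The sequence at Msgn1 holds 2 SOX words and, within 100 bp of the summit, an ESRRB word, and its summit lies in soft-masked sequence. Cdx2 had folds of 11.8, 66.6 and 138 in SOX2-ON (ranks 135, 62 and 42) and 92.7, 108 and 202 in naive ESCs (ranks 165, 54 and 90), which overlap. T, the streak factor brachyury, was bound in SOX2-ON replicate 3 alone (17.0 at rank 3975), and Meis3 in no library.

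Of 10 neural loci 7 were bound in no library, against 16498 of all 21938 loci. None was bound in a naive ESC library, and the matching share of all loci is not given here. Without SOX2-ON replicate 1, 1.87% of all loci were bound only in SOX2-ON. Zic1 and Neurog2 were of this class, each bound in SOX2-ON replicates 2 and 3. Zic1 had folds of 12 and 17.8 there, 7.34 and 5.34 in naive ESC replicates 1 and 3, and no peak elsewhere. Neurog2 had 11.4 and 19.1 against 7.20 and 7.10. Neither passed the rule of 3 against 0 with all 6 libraries. Of 7 FGF and ERK feedback loci, Fgfr1 was bound in all 6 and 4 in none. Of 8 feeder fibroblast marker loci, 2 (Col1a1 and Fbn1) were bound in SOX2-ON replicate 1 and none in the other 5 libraries. Of all 21938 loci, 17791 were bound in none of those 5 libraries and 16498 in none of the 6. Other loci were thus also bound in SOX2-ON replicate 1 alone. With 8 markers the shares were not compared, and the cause was not tested. ChIP peaks do not measure how many fibroblasts a sample held.

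The strongest sites found in only 1 condition lay in introns or between genes, as did 41.4% and 51.9% of all 14071 merged sites. Of the 14 sites in all SOX2-ON lists and absent from every full naive ESC list, the 5 with the highest median fold (17.3 to 25.5) all lay in introns. They were in Scube2, Kcnb2, Ttll5, Ncald and Chn2. The Ttll5 site, chr12:85858455-85859026, had folds of 7.33, 22.1 and 21.5 (ranks 812, 1085 and 3816), and its sequence holds 3 SOX words and a TCF word. The Ncald site, chr15:37381788-37382679, had folds of 6.00, 18.7 and 47.8 (ranks 3671, 1655 and 1036). Of the 311 sites of the reverse kind, the 5 highest had median folds of 60.7 to 105. The highest, chr2:119730476-119731492 in an intron of Rtf1, had folds of 79.2, 105 and 189 (ranks 317, 67 and 136) and holds no TCF word within 100 bp. Another 3 lay between genes, nearest to Pkn2, Gm42791 and Tprg.

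The strongest common sites were among the top of nearly every list. Of the 5 highest, those near Efr3a, Trim42 (in an intron of Clstn2) and Naa30 had median folds of 220, 210 and 175. The site near Naa30, chr14:49154996-49156286, ranked 39, 1 and 1 in SOX2-ON and 23, 28 and 47 in naive ESCs, with folds of 27.8, 290 and 315 against 148, 115 and 201. The Clstn2 site, chr9:97476311-97478208, ranked 49, 2 and 12 in SOX2-ON and 4, 4 and 1 in naive ESCs. Both sequences hold TCF words. The other 2 lay near 2510009E07Rik and in Lrmda.

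Shared sites also differed in strength. The fold was compared at the 1309 sites with a peak in all 6 full lists, as log2 fold minus the median of the library, with limma (adjusted p below 0.05). Of these, 191 (14.6%) were stronger in SOX2-ON and 253 (19.3%) in naive ESCs. Without SOX2-ON replicate 1, 6879 sites could be tested, of which 1092 (15.9%) were stronger in SOX2-ON and 1157 (16.8%) in naive ESCs. The changes are relative to each library's median. Without centring, 0 sites were called in either direction by limma with 6 libraries, where 14 and 87 had an unadjusted p below 0.05. With SOX2-ON replicates 2 and 3 only, 50 and 352 were called without centring.

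Among the sites stronger in SOX2-ON, the largest difference was at chr13:103000593-103001715 in an intron of Mast4. Folds there were 8.67, 46.2 and 92.4 in SOX2-ON and 4.89, 4.65 and 11.3 in naive ESCs, a centred log2 difference of 3.18 ± 0.362 (SE, limma adjusted p = 8.76e-06, n = 3 each). The next was at chr12:56887225-56887789 in an intron of Slc25a21, where the nearest start site was that of Pax9, with folds of 18.7, 87.3 and 162 against 20.0, 6.65 and 17.3 and a difference of 3.07 ± 0.308 (SE, limma adjusted p = 4.50e-06, n = 3 each). Its sequence is a tandem run with 10 SOX words in 81 bases. A site in an intron of Fgfr2, an FGF receptor gene, chr7:132320129-132321151, had folds of 15.3, 86.4 and 227 against 13.8, 8.27 and 28.2, a difference of 2.97 ± 0.304. The other 2 lay near Fat3 (2.98) and in Oca2 (2.92).

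Among the sites stronger in naive ESCs, the largest difference was at chr19:46435237-46436324 in an intron of Sufu, a negative regulator of hedgehog signalling. Folds there were 5.87, 6.97 and 14.1 in SOX2-ON and 116, 101 and 217 in naive ESCs, a difference of -3.24 ± 0.367 (SE, limma adjusted p = 8.76e-06, n = 3 each). The other 4 had differences of -2.94 to -2.77 and lay in introns of Wdr62, 5730522E02Rik, Hunk and Filip1l. In each of the 10 sites all 3 libraries of one condition lay above all 3 of the other on the centred scale. The 10 were picked by their difference on that scale, so this adds no separate support. Without SOX2-ON replicate 1 the largest difference towards SOX2-ON was near Clrn3, with folds of 49.1 and 159 in SOX2-ON replicates 2 and 3 and 6.91, 5.05 and 9.64 in naive ESCs, a difference of 4.12 ± 0.354 (SE, limma adjusted p = 6.12e-09, n = 2 and 3). The largest towards naive ESCs was at chr13:66979203-66980767 in an intron of Ptdss1, with folds of 4.91 and 7.20 in SOX2-ON replicates 2 and 3 and 125, 134 and 291 in naive ESCs, a difference of -4.38 ± 0.275 (SE, limma adjusted p = 8.35e-11, n = 2 and 3).

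Words were also counted at the sites that differed in strength, which overlap the data above. OTX words lay near 14.7% of the 191 sites stronger in SOX2-ON, 7.11% of the 253 stronger in naive ESCs and 8.86% of all 1309. With the 5 similar libraries the shares were 11.9%, 6.40% and 8.59%. ESRRB words lay near 0.458% of the 1092 and 1.64% of the 1157 sites there. With 6 libraries they lay near 0.524% of the 191 and 0.395% of the 253, shares of too few sites to give a direction. The median distance to a start site was 53601 bp at the 191 sites and 31293 bp at the 253. TCF words were as frequent in both directions, at 59.7% and 60.1%.

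**Figure D5:**
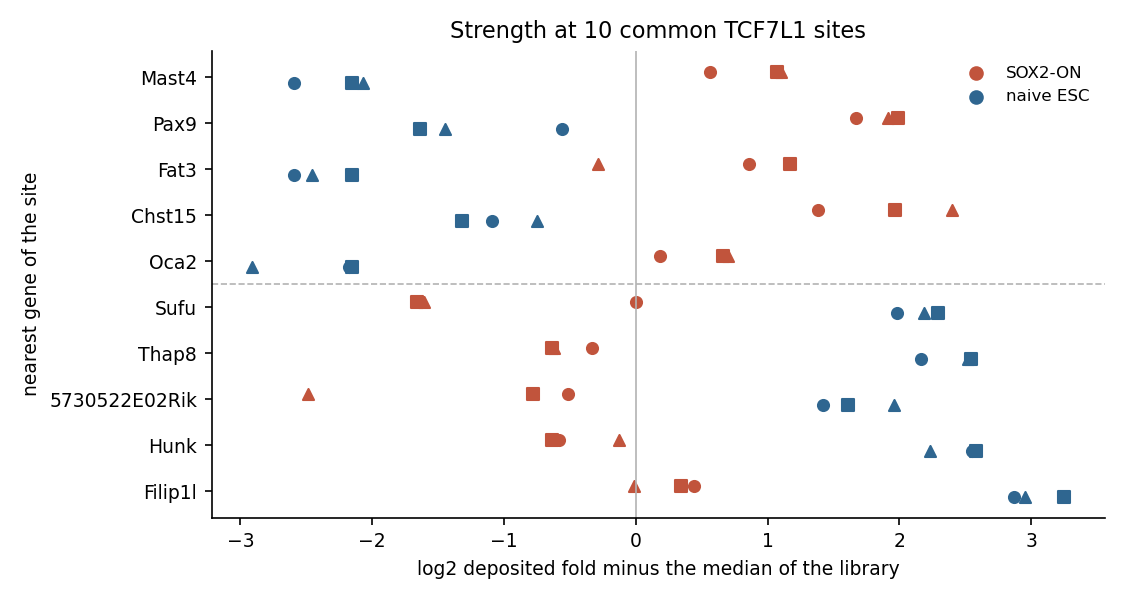
log2 deposited fold minus the median of the library at the 10 common TCF7L1 sites with the largest called differences, named by the nearest gene, one point per library (circle, square and triangle for replicates 1, 2 and 3). The 5 sites above the dashed line are stronger in SOX2-ON, with Mast4 differing by 3.18, and the 5 below in naive ESCs, with Sufu differing by -3.24. The points of the 2 conditions do not overlap at any of the 10.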

How the data were processed

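TCF7L1 ChIP-seq peaks were compared between 3 SOX2-ON and 3 naive ESC libraries, grouped by their labels. Per the submitters' processing notes and the study's methods, the authors aligned single-end 76-bp reads to mm10 with BWA in an nf-core pipeline and called narrow peaks per library with MACS2 at q below 0.05. Cells had been fixed with DSG and formaldehyde. The deposited values were the fold (ratio of signal to local background) and, on the −log10 scale, a p-value and a q-value per peak. Counts, depth and the pairing with inputs were not given in the sources used here, and the number of replicates therefore limits the precision.

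Peaks were ranked by −log10 p-value and the 5000 strongest per library were kept and merged where they shared 1 bp. Words were sought within 100 bp of the summit, and start sites were those of 21938 protein-coding genes (GENCODE vM21 basic on GRCm38.p6). Libraries were compared by exact two-sided permutation tests over all assignments of the libraries (smallest p 0.10) with Benjamini-Hochberg adjustment. Deposited folds at common sites were tested with limma 3.58.1 in R 4.3.3 on log2 values centred on each library's median. Scripts ran under Python 3.11.15 with numpy 2.4.6, pandas 2.3.3, scipy 1.17.1 and pysam 0.24.0, and were tested on simulated data. Replicates were labelled biological and, per the study's methods, came from separate experiments.

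Named genes were the 5 sites per class with the highest median fold, the 5 called sites per direction with the largest strength difference, listed genes bound in 3 of 3 libraries of one condition and 0 of 3 of the other, and Tcf7l1, Tcf7, Tcf7l2, Lef1, Sox2, Klf2, T, Cdx2, Nodal, Meis3, Nanog and Esrrb. Other listed genes given as examples (Tfcp2l1, Prdm14, Notum, Fgf5, Zic1, Neurog2 and those counted in small groups), Tfap2a, Tfap2c and the sites near Clrn3 and in Ptdss1 were chosen after their values were seen. The members and gene lists were chosen with earlier results of these data known. Alternatives were list length, ranking, window, distance, centring, replicate block and leaving out libraries. One site that the rule names is not reported here.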

Additional observations from a re-analysis of the deposited data

How the results depend on the processing

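Agreement, the ESRRB, KLF and OTX differences and the 4 co-occupancy indices kept their direction under every alternative run, but not their size. With all peaks agreement fell to 0.0110 (exact permutation p = 0.60), OTX to 0.506 (p = 0.30), KLF to -1.54 (p = 0.40) and the TCF7L2 index to 3.38 (p = 0.10). OTX was 0.727 with a 250 bp window (exact permutation p = 0.40), and the LEF1 index 4.39 without replicate 2 of both conditions. Counts moved with list length. With the shortest of the 12 TCF7L1 lists, sites only in SOX2-ON, only in naive ESCs and in all 6 numbered 101, 507 and 263, and loci 58 and 275. With 2000 peaks the latter 2 site counts were 597 and 306 and loci 67 and 315, with 10000 peaks 2422 and 807, and with the shortest of the 6 lists 3675 and 1067, with 222 loci only in SOX2-ON. With all peaks they were 77, 6406 and 1309, with 2 and 96 loci. Absence from full lists left 14 and 311 sites, and start sites within 5000 bp left 23 and 204 loci. Fewer or more peaks entered by construction. The 3-against-0 pattern at a listed locus was lost under 6 alternatives for Lefty2, 5 for Nkd1, 5 for Dkk1, 4 for Evx1 and 2 for Msgn1.

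Quantile normalization called 160 sites stronger in naive ESCs. No centring called 0 and 0 with 6 libraries, where the 10 named sites kept their direction but none passed. With the 5 similar libraries it called 50 towards SOX2-ON, and all 10 passed. The T word difference reversed to 0.0205 (shortest of 12), 0.0333 (2000 peaks), 0.00667 (fold rank) and 0.107 (50 bp window), CDX to -0.226 (shortest of 12) and -0.0133 (50 bp), and FOXH1 to 0.0182 (shortest of 6). The promoter share reversed to -0.0615 (shortest of 12), -0.100 (2000 peaks), -0.206 (all peaks) and -2.29 (5000 bp). The cause was not tested.

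Leaving out libraries gave ranges of -0.822 to 0.0866 for log10 list length, 172 to 1474, 1344 to 1840 and 526 to 1771 for the 3 site counts, 138 to 487 and 593 to 794 for loci, and 71 to 1092 and 96 to 1184 for strength calls. The ranges were -17.3 to 0.990 for TCF, -8.34 to 4.08 for SOX, -2 to 0.197 for OCT, -0.247 to 0.0733 for T, -0.100 to 0.720 for CDX, -0.423 to 2.96 for TEAD and -0.230 to 0.630 for the promoter share. Strength calls fell to 71 and 96 without replicate 3 of both conditions. The TCF end above 0 came without replicate 1 of both conditions, and the SOX and OCT ends above 0 without SOX2-ON replicate 1.

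Same-numbered libraries had deviations correlated at 0.135, 0.0450 and 0.0277, so the numbers were not taken to pair them. With the replicate block, 210 and 282 sites differed in strength, agreement differed by 0.163 (exact permutation p = 0.25, the smallest possible), and the 10 named sites kept their calls. SOX2-ON replicates 2 and 3 each correlated best with a naive ESC library of another number.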
